A study of Mus musculus with 6 samples.

Results

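Chaperones are proteins that bind unfolded or half-made proteins and help them reach or keep their shape. HSP70 proteins, brought to their clients by J-proteins of the DNAJ families, act on chains leaving the ribosome, and the HSP90 machine and the double-ring chaperonin CCT take over many of these clients, among them kinases, actin and tubulin. Heat shock factors raise many of the genes when proteins are damaged, and several CCT subunit genes stand in human collections of Myc target genes. The genes described here were all those whose single gene symbol in the array's annotation began with Hspa, Hspb, Hsph, Hsp90a, Dnaja, Dnajb, Dnajc, Cct2 to Cct8 or Pfdn, or was Tcp1, Bag1 to Bag6, Stip1, Hsf1 or Hsf2, without Hspa5, Hspa9, Dnajb9, Dnajb11 and Dnajc3. This gave 87 of the 18193 genes with a single-gene probe set, in 9 families, each gene read by its brightest probe set on average over the 6 arrays. The rule uses names and mean level, not the difference between the groups, and no probe set of Hsf1 or Hsp90ab1 was analysed here. Names do not tell where a protein works, so the 87 genes include some whose products sit in the endoplasmic reticulum (ER) or in mitochondria.

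The RNA was that of LT-HSCs, the long-term stem cells that sustain blood formation. Lin-Sca1+CD150+CD48- cells were sorted out of the bone marrow of mice with a mixed background, 8 weeks old. The dKO group carried MxCre with floxed c-myc and floxed N-myc. MxCre is a recombinase under an interferon-responsive promoter that is not limited to stem cells. Control mice carried both floxed genes without MxCre, so the recombinase and the deletion come together in this comparison. All mice of both groups received 2 daily doses of pI-pC, an inducer of interferon, and were killed 3 days after the last. Each group had 3 arrays, each from its own pool of 3 dKO or 2 control mice. Values are log2 RMA expression values, so 1 unit is a 2-fold difference, and "rose" or "fell" is used below only for an adjusted p under 0.05 in limma's test of dKO minus control over all probe sets.

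Array medians lay at 5.90 to 5.92 in dKO and 5.96 to 5.97 in control arrays, without overlap. Myc fell to 7.28, 7.77 and 7.24 in the dKO arrays, against 10.40, 10.57 and 10.12 in the control arrays (limma adjusted p = 0.00137). Mycn had 3 probe sets. The probe set with the largest difference was in the negative control range in dKO arrays and at least 119-fold lower than in control arrays, the brightest on average fell by 1.61 ± 0.22 (SE, log2, limma adjusted p = 0.00938), and the remaining one differed by -0.08 (adjusted p = 0.858). The 3′ minus 5′ signal of Gapdh, a measure of RNA quality, was 2.39 to 2.47 in dKO and 2.12 to 2.36 in control arrays. Of the LT-HSC markers, Slamf1, which encodes the CD150 of the sort, averaged 9.24 ± 0.25 in dKO and 9.16 ± 0.16 in control arrays (SD, n = 3 each). Of 7 such markers measured, 3 fell (Tek, Kit and Hlf) and 0 rose. Markers of other cells also differed: of 6 megakaryocyte and platelet genes 3 rose and 1 fell, of 5 T and NK cell genes 1 rose, of 5 macrophage genes 1 rose and of 3 erythroid genes 1 fell, while 0 of 8 granulocyte and 0 of 4 B cell genes passed. The log2 of the summed linear values of the megakaryocyte list was 12.78 to 13.46 in dKO and 11.62 to 11.83 in control arrays. For T and NK cells it was 10.27 to 10.82 in dKO and 8.16 to 8.46 in control arrays, with the mean of Ncr1 in either group no higher than the negative control probe sets. The T and NK gene that rose was Nkg7, with a mean of 10.32 in dKO and 7.75 in control arrays. The others, Cd3d, Cd3e, Cd3g and Ncr1, differed by 0.13 to 0.34 with overlap. The sums lay at 8.05 to 8.17 in dKO and 7.499 to 7.84 in control arrays for macrophages, and at 6.93 to 7.84 in dKO and 8.31 to 8.68 in control arrays for erythroid cells. For granulocytes they lay at 8.47 to 10.22 in dKO and 9.80 to 11.35 in control arrays, and for B cells at 7.96 to 8.47 in dKO and 7.75 to 8.04 in control arrays, with Ms4a1 in the negative control range. The part of these cells in the results below was not tested. In RNA of a cell population, fewer cells of a type and less RNA per cell cannot be told apart.

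Promoter sequences were searched for the sites of Myc and of heat shock factors. Windows of 250 bases before to 50 bases after a start site were given by RefSeq (GRCm38.p6) for 72 of the 87 genes. The search ran on both strands and without mismatch for the E-box CACGTG, the site of Myc with Max, and for the heat shock element that heat shock factors bind. The element was read as 2 units facing each other, GAANNTTC or TTCNNGAA, or as 3 units, GAANNTTCNNGAA or TTCNNGAANNTTC, which contain the shorter form. An E-box lay in a window of 6 genes (8.33%), against 8.09% of the 27025 genes with a window. They were Dnajc1, Dnajc8, Dnajc16, Hsf2, Hspbap1 and Hsph1, and none of these 6 passed limma's test, with adjusted p of 0.156 or more. The form of 2 units lay in 19 genes (26.4%), against 17% of all, and that of 3 units in 2 genes (2.78%), Hsph1 and Dnajb6, against 0.662% of all. A match describes letters and is not evidence of binding. The 4 windows below, from 200 bases before to 40 bases after the start site and written 5′ to 3′ on the gene's strand, are shown because they belong to the stress-inducible HSP70 gene Hspa1b (chr17:34959199-34959438, minus strand), to the pair with 3 units, Hsph1 (chr5:149636276-149636515, minus strand) and Dnajb6 (chr5:29735698-29735937, plus strand), and to Hspb8 (chr5:116422825-116423064, minus strand), which had the largest rise among the 87 genes. Capitals mark heat shock elements and, in Hsph1 at 19 bases before the start site, the E-box.
Hspa1b: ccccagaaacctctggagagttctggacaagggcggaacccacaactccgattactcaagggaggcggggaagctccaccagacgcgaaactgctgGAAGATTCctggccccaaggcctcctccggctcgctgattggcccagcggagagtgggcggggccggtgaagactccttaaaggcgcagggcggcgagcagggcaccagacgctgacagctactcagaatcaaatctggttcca
Hsph1: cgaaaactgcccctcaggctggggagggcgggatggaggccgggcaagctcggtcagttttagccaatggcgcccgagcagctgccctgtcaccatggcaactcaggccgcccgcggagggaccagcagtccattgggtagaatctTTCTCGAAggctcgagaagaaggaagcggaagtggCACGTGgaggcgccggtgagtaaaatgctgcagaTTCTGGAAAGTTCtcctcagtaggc
Dnajb6: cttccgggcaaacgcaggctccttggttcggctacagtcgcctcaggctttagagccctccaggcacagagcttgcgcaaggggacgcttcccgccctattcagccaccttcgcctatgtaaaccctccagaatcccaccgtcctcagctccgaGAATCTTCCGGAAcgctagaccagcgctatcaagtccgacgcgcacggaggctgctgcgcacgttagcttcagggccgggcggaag
Hspb8: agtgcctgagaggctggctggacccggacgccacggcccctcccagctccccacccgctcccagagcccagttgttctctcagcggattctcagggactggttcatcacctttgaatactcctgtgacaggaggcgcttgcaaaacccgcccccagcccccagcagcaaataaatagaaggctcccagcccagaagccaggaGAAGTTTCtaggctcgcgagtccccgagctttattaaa

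The share of the 87 chaperone genes called between dKO and control stem cells was not above that of all genes. Of the 87, 3 rose, 2 fell and 82 did not pass, a share of 5.75% called, against 8.05% of all genes by their representative probe sets. Without dKO replicate 1 or 2 the count higher was 1, and without dKO replicate 1 or control replicate 2 the count lower was 0. The 3 that rose compare with 4.49% of all genes and the 2 that fell with 3.56%. Over all 202 probe sets of the 87 genes, 10 rose and 2 fell (5.94%), against 6.99% of all probe sets on the array, of which 3.57% rose and 3.41% fell. The median difference was 0.06 for the 87 genes and 0.01 for all genes, and the median absolute difference was 0.22 and 0.21. At an unadjusted p under 0.05 stood 23 of the 87 (26.4%), against 23.1% of all genes. For 66 of the 87 genes (75.9%) the 95% interval of the difference lay wholly within 1 of 0 (a 2-fold difference lay outside it), against 77.3% of all genes. The dKO and control arrays did not overlap for 33 genes (37.9%), 24 higher and 9 lower in dKO, against 30.0% of all genes, of which 15.8% were higher and 14.2% lower. Among genes above the lowest array median, 4 of 67 chaperone genes (5.97%) were called, against 12.5% of 10468 genes in all, 750 higher and 560 lower. In that brighter set the arrays did not overlap for 43.3% of chaperone genes, against 41.3% of all genes. An unadjusted limma p under 0.05 was found there for 29.9%, against 33.6%.

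**Figure D1:**
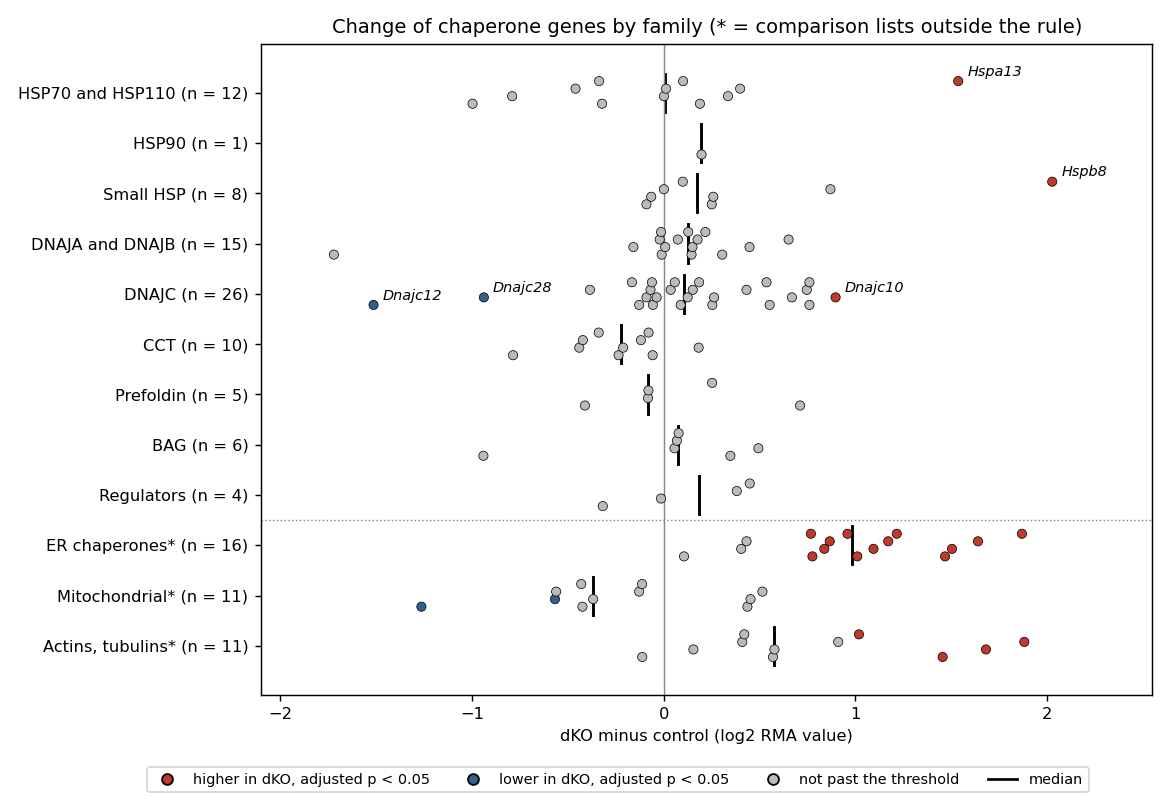
Each point is 1 gene, placed by its difference dKO minus control (log2 RMA value, x axis) in the row of its family, with a vertical bar at the row's median; red and blue mark genes with a limma adjusted p under 0.05. The families of the 87 genes scatter around 0 with 5 named calls. Of 16 ER chaperones, 13 are called higher, against 4.49% of all genes. They are a comparison list outside the rule, chosen with earlier results of these data known.

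The 3 genes that rose came from different families. Hspa13, an HSP70-related protein of microsomes, had 9.67, 9.59 and 9.19 in the dKO arrays, against 8.01, 8.32 and 7.51 in the control arrays. Every dKO array lay above every control array, and the rise was 2.90-fold (log2 difference 1.54 ± 0.24 SE, limma adjusted p = 0.0141). All 4 Hspa13 probe sets were higher, by 0.96 to 1.54, and 3 of them passed. Without dKO replicate 1 or 2 the adjusted p of Hspa13 was 0.0552 or 0.0536.

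Hspb8 encodes a small heat shock protein that works with the co-chaperone Bag3 to hand misfolded proteins to autophagy. Its values were 8.84, 9.42 and 8.60 in the dKO arrays, against 6.30, 7.27 and 7.19 in the control arrays. The groups did not overlap, and the rise was 4.08-fold (log2 difference 2.03 ± 0.32 SE, limma adjusted p = 0.0142). It passed in each of the 6 fits with 1 array left out, with adjusted p from 0.0283 to 0.0498. The other 2 Hspb8 probe sets had smaller differences, 0.53 (adjusted p = 0.0988) and 0.16 (adjusted p = 0.629), and the mean over the 3 gave 0.91 (limma adjusted p = 0.0157). Bag3 itself had 6.24, 6.5 and 5.85 in dKO, against 5.81, 5.78 and 5.51 in control arrays, a difference of 0.49 ± 0.20 (SE) without overlap that did not pass (adjusted p = 0.203).

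Dnajc10, also called ERdj5, is a disulfide reductase of the ER that carries a J-domain. It had 9.67, 9.78 and 9.54 in the dKO arrays, against 8.69, 8.67 and 8.93 in the control arrays. The rise was 1.86-fold (log2 difference 0.90 ± 0.14 SE, limma adjusted p = 0.015), and all 3 Dnajc10 probe sets passed, by 0.72 to 0.93. The call was lost without dKO replicate 1 or 2 or control replicate 1 or 2, with adjusted p of 0.0508 to 0.0563. Of the 3 genes that rose, Hspa13 and Dnajc10 thus encode proteins of the ER and not of the cytosol.

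Both genes that fell belong to the DNAJC family. Dnajc28, whose product is assigned to mitochondria, had 6.38, 6.28 and 6.43 in the dKO arrays, against 7.06, 7.38 and 7.47 in the control arrays. The fall was 1.92-fold (log2 difference -0.94 ± 0.15 SE, limma adjusted p = 0.0162), and the second probe set differed by -0.94 as well, with overlapping groups (adjusted p = 0.167). The Dnajc28 call was lost without dKO replicate 1 or 2 or control replicate 2 or 3 (adjusted p 0.0503 to 0.0592). Dnajc12, a co-chaperone of the aromatic amino acid hydroxylases, had 3.13, 3.51 and 2.83 in the dKO arrays, against 4.26, 4.71 and 5.04 in the control arrays (log2 difference -1.51 ± 0.25 SE, limma adjusted p = 0.0174). All dKO values of Dnajc12 lay between 2.13 and 3.92, where the 3 negative control probe sets lay, so its fall is a bound, at least 1.68-fold lower against the highest of them. Without dKO replicate 1 or 3 or control replicate 2 the Dnajc12 adjusted p was 0.0549 to 0.0629.

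**Figure D2:**
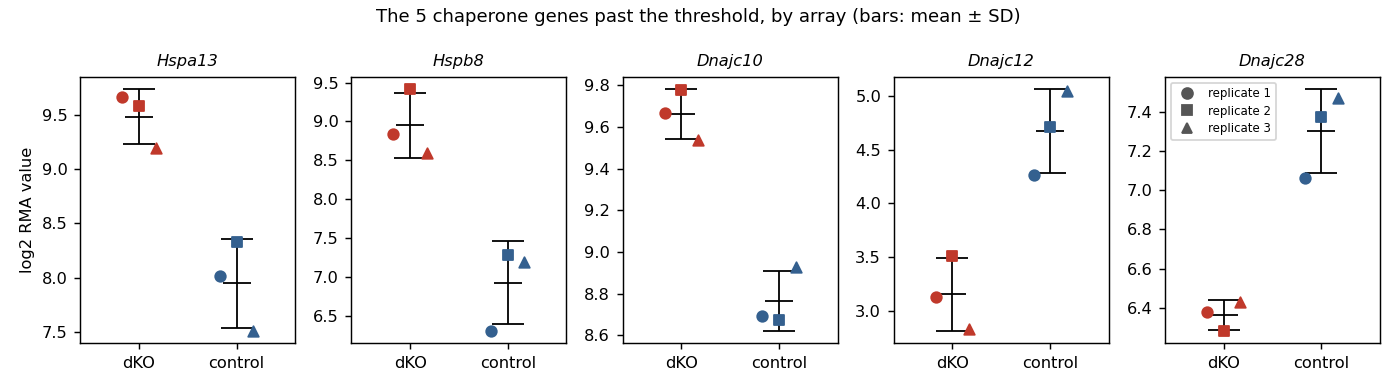
Log2 RMA values of the 5 chaperone genes past the threshold, dKO arrays in red and control arrays in blue, 1 point per array with the replicate number as its shape and bars at the mean ± SD of 3 arrays. No dKO value overlaps a control value in any of the 5 panels, and the y axes differ between panels and do not start at 0.

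In the HSP70 and HSP110 family, 1 of 12 genes rose (Hspa13), 0 fell and 11 did not pass, with a median difference of 0.01. The share called was 8.33%, against 8.05% of all genes. Hspa8, the constitutive HSP70 of the cytosol, had 13.16, 13.09 and 13.00 in dKO, against 12.98, 12.92 and 13.04 in control arrays. The groups overlapped, and the difference of 0.10 had a 95% interval of -0.19 to 0.40. For this brightest probe set a change of 2-fold either way thus lay outside the interval. The 4 Hspa8 probe sets differed by -0.75 to 0.11, and 0 passed. The nucleotide exchange factors Hspa4, Hspa4l and Hsph1 of the HSP110 type differed by 0.19, 0.01 and 0.40 (adjusted p = 0.503, 0.974 and 0.444). Hspa14, which sits on ribosomes with the J-protein Dnajc2, differed by 0.34 ± 0.14 (SE, adjusted p = 0.221), and Dnajc2 by 0.26 ± 0.16 (adjusted p = 0.42). A second probe set of Hspa14 rose by 0.75 (adjusted p = 0.0264) and 1 of the other probe sets of Hspa4l by 0.67 (adjusted p = 0.042), so the results for both genes rest on the probe set used. Hspa2 differed by 0.00, Hspa12a by -0.32 and Hspa12b by -0.46, with adjusted p from 0.319 to 0.996.

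In the stress-inducible HSP70 genes 1 control array stood far above the others. Hspa1b had 5.65, 7.03 and 6.11 in the dKO arrays, against 5.32, 6.78 and 9.68 in the control arrays. Control replicate 3 stood 2.65 above the highest of the other 5 arrays, a 6.26-fold excess. Hspa1a, its near-identical neighbour, had 3.65, 4.35 and 3.01 in dKO, against 3.06, 3.54 and 6.77 in control arrays, with control replicate 3 again 2.43 above the rest. The 2 other Hspa1b probe sets showed the same array 2.32 and 1.59 above the others. Because Hspa1a and Hspa1b share most of their sequence, their probe sets may read both genes. Hspa1l, a further HSP70 gene of that locus, had 4.72, 5.26 and 5.52 in dKO, against 4.77, 5.20 and 6.54 in control arrays.

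None of the 3 passed the test, with differences of -0.997 ± 1.01 for Hspa1b, -0.79 ± 0.92 for Hspa1a and -0.34 ± 0.45 for Hspa1l (SE, adjusted p = 0.643, 0.696 and 0.74). Without control replicate 3 the differences were 0.21 for Hspa1b and 0.37 for Hspa1a (adjusted p = 0.887 and 0.69), so the sign turned. Control replicate 3 was over 1 above all other arrays for 4 of the 87 genes (4.60%), against 0.319% of all genes. They were Hspa1a, Hspa1b, Hspa1l and Dnajb7, a testis J-protein, with 8.82 in control replicate 3, against 5.16, 6.31 and 5.20 in dKO arrays and 5.98 and 7.03 in the other control arrays. The other arrays stood apart in this way for 0 or 1 of the 87. The array did not stand apart for Hsph1, Hsp90aa1 or the brighter Dnajb1 probe set, and the second Dnajb1 probe set lay 0.53 and a second Hspa8 probe set 0.87 above the rest there.

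**Figure D3:**
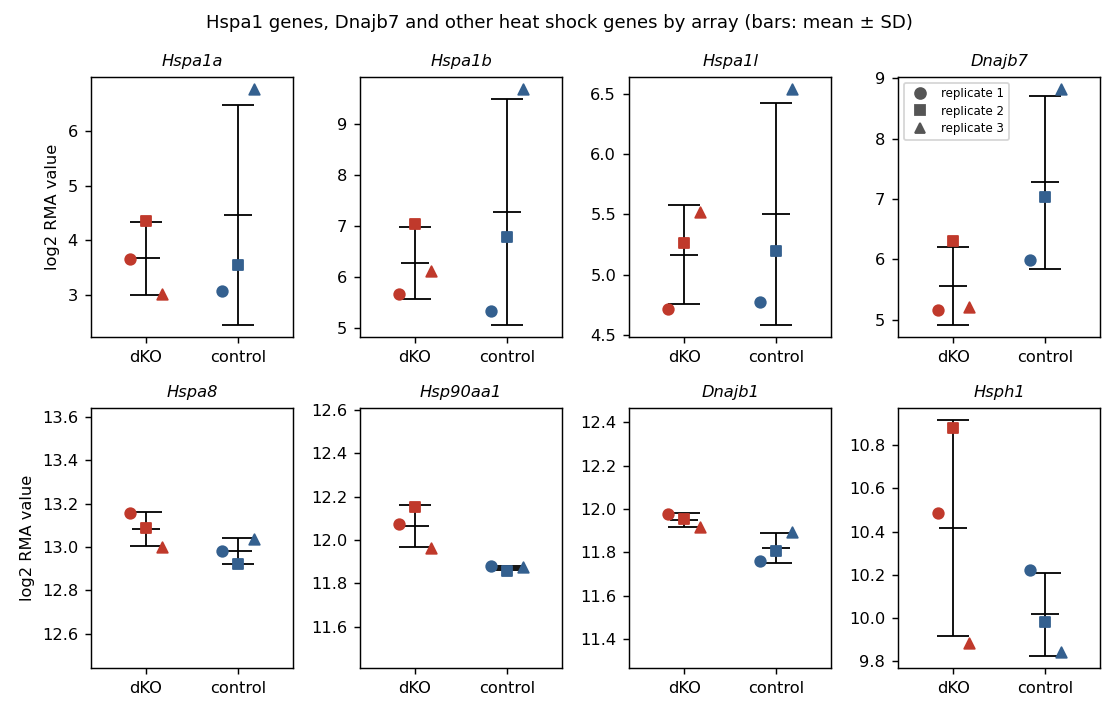
Log2 RMA values by array for the Hspa1 genes, Dnajb7 and 4 other heat shock genes, dKO in red and control in blue, with the replicate number as the point's shape and bars at the mean ± SD of 3 arrays. The triangle of control replicate 3 lies far above the other arrays in the panels of the upper row and not in those of the lower row; y axes differ between panels and do not start at 0.

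HSP90 was measured by Hsp90aa1 alone, the inducible cytosolic form that matures kinases and steroid receptors. It had 12.08, 12.15 and 11.96 in dKO, against 11.88, 11.86 and 11.88 in control arrays. The groups did not overlap, yet the difference of 0.19 ± 0.13 (SE, 95% interval -0.10 to 0.49) did not pass (adjusted p = 0.445). Its 5 probe sets differed by 0.03 to 0.23, and 0 passed. Stip1, the adaptor that links HSP70 to HSP90, had 9.02, 9.15 and 9.09 in dKO, against 8.74, 8.38 and 8.79 in control arrays, also without overlap (0.45 ± 0.16 SE, adjusted p = 0.149). The heat shock factor Hsf2 differed by 0.38 ± 0.15 (adjusted p = 0.185) without overlap. The HSP70 exchange factor Hspbp1 differed by -0.01 and Hspbap1, which binds Hspb1, by -0.32 (adjusted p = 0.976 and 0.402).

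Among the 8 genes grouped as small heat shock proteins by their Hspb symbol alone, the median difference was 0.18, Hspb8 rose and 7 genes did not pass. The share called was 12.5%, against 8.05% of all genes. Hspb1, which keeps damaged proteins soluble, had 6.03, 5.83 and 5.70 in dKO, against 5.27, 5.73 and 5.78 in control arrays, with overlap (0.26 ± 0.18 SE, adjusted p = 0.484). Hspb6 differed by 0.87 ± 0.52 with overlapping groups (adjusted p = 0.395). Hspb11, Hspb2, Hspb3, Hspb7 and Hspb9 differed by -0.09 to 0.25, and Hspb11 alone of these had no overlap (0.10 ± 0.12 SE, adjusted p = 0.71).

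None of the 15 DNAJA and DNAJB genes passed, while 8.05% of all genes did, and their median difference was 0.13, against 0.01 for all genes. These J-proteins deliver clients to HSP70. The nearest to the threshold was Dnaja1, a farnesylated partner of Hspa8, with 11.96, 12.22 and 11.81 in dKO, against 11.39, 11.44 and 11.20 in control arrays. Every dKO array was higher, for all 3 of its probe sets, and the difference was 0.65 ± 0.16 (SE, adjusted p = 0.0553). Dnaja1 passed with each array centred on its median (adjusted p = 0.0416), among the brighter probe sets only (0.0277) and with a trended robust prior (0.0102). It did not pass with quantile normalization (0.0618), array weights (0.0595) or the replicate block (0.0854). Of the 6 fits with 1 array left out, Dnaja1 passed in 0 (limma adjusted p 0.0775 to 0.141).

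Dnajb1, the classical heat-induced HSP40, had 11.98, 11.95 and 11.92 in dKO, against 11.76, 11.81 and 11.89 in control arrays. The difference was 0.13 with a 95% interval of -0.16 to 0.42 (adjusted p = 0.623). Dnajb4 differed by 0.45 ± 0.14 (SE, adjusted p = 0.109), and 1 of its other probe sets rose by 0.77 (adjusted p = 0.0409) while the third differed by -0.71 (adjusted p = 0.238). Dnaja2 and Dnajb6 differed by 0.15 each, and the ER membrane J-proteins Dnajb12 and Dnajb14 by -0.01 and 0.31. Dnaja3, a J-protein of mitochondria, differed by -0.02. Other probe sets differed more: the 4 of Dnaja2 ran from -0.93 to 0.18 and the 3 of Dnaja3 from -0.57 to -0.02, and 0 passed. Dnajb7 had the largest difference of the family, -1.72 ± 0.69 (SE, adjusted p = 0.206), which was -0.95 without control replicate 3 (adjusted p = 0.337). Dnajb3 was in the negative control range in both groups. Dnaja4, Dnajb2, Dnajb5, Dnajb8 and Dnajb13 differed by -0.16 to 0.22.

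In the DNAJC family, 1 of 26 genes rose, 2 fell and 23 did not pass, with a median of 0.11. The share called was 11.5%, against 8.05% of all genes. These proteins share only the J-domain and serve many sites. Without passing, 9 more genes were higher in every dKO array. Such a lack of overlap was found in 15.8% of all genes and in 2328 of the 10468 genes above the lowest array median. Dnajc30, of mitochondria, had 7.52, 7.88 and 8.27 in dKO, against 7.16, 7.06 and 7.17 in control arrays (0.76 ± 0.20 SE, adjusted p = 0.0726). Dnajc15, of the inner mitochondrial membrane, differed by 0.76 ± 0.24 (adjusted p = 0.112) and Dnajc21, a factor of ribosome assembly, by 0.75 ± 0.25 (adjusted p = 0.14). Dnajc9, which also binds histones, had 10.68, 10.68 and 10.64 in dKO, against 10.25, 10.34 and 10.11 in control arrays (0.43 ± 0.13 SE, adjusted p = 0.1). Dnajc8, found with the splicing machinery, differed by 0.55, Dnajc14 by 0.54, Dnajc17 by 0.25, the ER protein Dnajc1 by 0.19 and Dnajc5 by 0.13. Dnajc7, an HSP70 and HSP90 adaptor, differed by 0.04 (95% interval -0.29 to 0.37). Dnajc6, the neuronal partner of clathrin coats, differed by -0.38 with overlap. Dnajc5b differed by 0.67 ± 0.51, with 1 high array, dKO replicate 3, at 6.59 against 4.41 and 4.94 in the other dKO arrays and 4.45 to 4.91 in control arrays. Dnajc5g was in the negative control range in both groups. Dnajc4, Dnajc11, Dnajc13, Dnajc16, Dnajc18, Dnajc22, Dnajc24, Dnajc25 and Dnajc27 had differences between -0.13 and 0.15 by their brightest probe sets. The 3 Dnajc11 probe sets not in the negative control range in both groups ran from -0.83 to -0.03. Those of Dnajc18, also 3, ran from -0.25 to 0.65, and 0 passed for either gene.

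None of the chaperonin genes passed the test. CCT is a ring of 8 different subunits that folds actin and tubulin. Of 10 CCT genes, 0 passed limma's test, while 8.05% of all genes did. An unadjusted p under 0.05 was found for 2 of the 10, Cct4 and Cct5, and for 23.1% of all genes. Differences were below 0 for 9 of the 10, with a median of -0.22, against 0.01 for all genes. Cct5 had 10.07, 10.28 and 10.21 in dKO, against 10.57, 10.73 and 10.58 in control arrays, a difference of -0.44 ± 0.13 (SE, 95% interval -0.75 to -0.13, adjusted p = 0.103). Cct4 had 11.01, 11.03 and 10.81 in dKO, against 11.30, 11.50 and 11.31 in control arrays, a difference of -0.42 ± 0.14 (adjusted p = 0.129). Its 7 probe sets differed by -0.47 to -0.29, and 0 passed. These probe sets read the same transcripts and are not independent.

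Cct3, Cct6a and Cct2 were also lower in every dKO array, by 0.34, 0.24 and 0.21 on the log2 scale, but with adjusted p of 0.341, 0.341 and 0.377. Thus 5 of the 10 genes lay lower without overlap, against 14.2% of all genes and 1996 of the 10468 genes above the lowest array median. The median level was 11.2 for the CCT genes and 6.41 for all genes. Tcp1, the alpha subunit, had 12.05, 12.12 and 12.01 in dKO, against 12.23, 12.27 and 12.05 in control arrays (-0.12 ± 0.13 SE, adjusted p = 0.677). Cct8 differed by -0.08 and Cct7 by 0.18 (adjusted p = 0.812 and 0.592). For the 8 ring subunits each 95% interval lay within 1 of 0, so a 2-fold difference lay outside it. Cct6b, a testis form, had a dKO mean in the negative control range and 1 high array, control replicate 1, at 5.40, and neither Cct6b nor Cct8l1 passed. With a trended robust prior Cct2, Cct4 and Cct5 passed (adjusted p = 0.05, 0.0256 and 0.0228). None of them passed in the 6 fits with 1 array left out (limma adjusted p 0.16 or more).

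**Figure D4:**
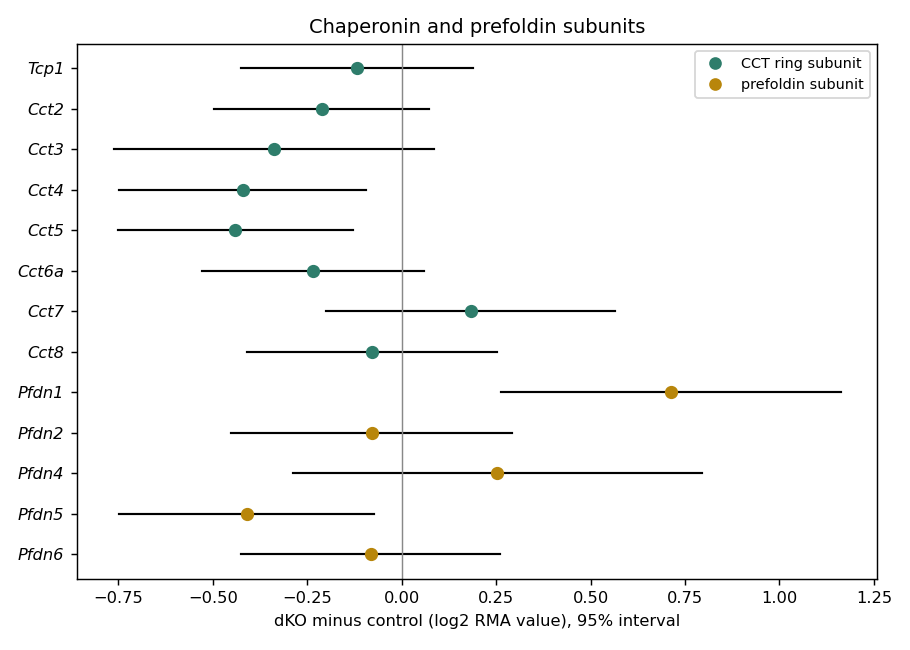
Difference dKO minus control (log2 RMA value, x axis) of the 8 CCT ring subunits in green and 5 prefoldin subunits in ochre, with lines for the 95% interval from limma. Of the ring subunits 7 lie below 0 and Cct7 above it, and Pfdn1 and Pfdn5 lie on opposite sides.

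Prefoldin, which hands nascent actin and tubulin to CCT, had differences on both sides of 0 in the 5 subunits that the rule names. Pfdn1 had 9.80, 9.61 and 9.98 in dKO, against 9.14, 9.35 and 8.76 in control arrays, a difference of 0.71 ± 0.19 (SE, adjusted p = 0.0761). Pfdn5, known also as a binder of the Myc protein, had 10.17, 10.17 and 10.11 in dKO, against 10.54, 10.75 and 10.38 in control arrays, a difference of -0.41 ± 0.14 (adjusted p = 0.152). The arrays of the groups did not overlap for either. Pfdn2, Pfdn4 and Pfdn6 differed by -0.08, 0.25 and -0.08 with overlap. None of the 5 passed, while 8.05% of all genes did. Pfdn1 passed among the brighter probe sets (adjusted p = 0.0397) and with a trended robust prior (0.0392). Of the 6 fits with 1 array left out, Pfdn1 passed in 0 (limma adjusted p 0.0809 to 0.196).

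The BAG proteins, exchange factors that release clients from HSP70, had 0 of 6 genes past the threshold, which 8.05% of all genes passed. Bag2 had 4.89, 5.495 and 5.23 in dKO, against 6.69, 6.36 and 5.39 in control arrays, a difference of -0.94 ± 0.34 (SE, adjusted p = 0.164). The overlap came from control replicate 3, and without it the Bag2 difference was -1.32 (limma adjusted p = 0.04). That was the only 1 of the 6 fits with 1 array left out in which Bag2 passed. In these fits its differences ran from -1.32 to -0.67, with adjusted p up to 0.353. Bag1, Bag5 and Bag6 differed by 0.06, 0.08 and 0.07, and Bag4 by 0.35 (adjusted p = 0.389 or more).

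Partners outside these names are given for comparison only, in lists chosen with earlier results of these data known. Of all genes, 4.49% rose and 3.56% fell. Of 21 co-chaperones of HSP90, 1 rose and 1 fell (median 0.09). Fkbp5, an immunophilin raised by glucocorticoids, rose by 0.81 ± 0.17 (SE, adjusted p = 0.0327), and its relative Fkbp4 fell by 0.75 ± 0.15 (adjusted p = 0.0283), while Ttc4 differed by -0.86 (adjusted p = 0.0861). Both calls were lost in 5 of the 6 fits with 1 array left out, with adjusted p up to 0.103 for Fkbp5 and 0.0879 for Fkbp4. The mean over the Fkbp4 probe sets was -0.28 and did not pass (adjusted p = 0.231). Of 12 genes listed as partners of CCT and prefoldin, Tbcb, a tubulin folding cofactor, rose by 1.16 ± 0.22 (adjusted p = 0.0252). This call was lost in 4 of the 6 fits with 1 array left out (up to 0.0822). The list includes Vbp1, itself a prefoldin subunit but outside the rule's names, which differed by -0.20 without overlap (limma adjusted p = 0.439). Uxt and Pdcl3 differed by 0.77 and 0.43 (adjusted p = 0.118 and 0.113).

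Actin and tubulin are the main clients of CCT. Of 11 actin and tubulin genes 4 rose and 0 fell, with a median of 0.58. The share called was 36.4%, against 8.05% of all genes. Actg1, cytoplasmic gamma-actin, had 12.61, 12.52 and 12.54 in dKO, against 11.49, 11.59 and 11.53 in control arrays (1.02 ± 0.12 SE, adjusted p = 0.00609). Tuba1a rose by 1.46 ± 0.20, Tubb2a by 1.68 ± 0.23 and Tubb6 by 1.88 ± 0.37 (adjusted p = 0.0102, 0.00873 and 0.0286), and 3 to 4 of the list rose with 1 array left out. Of the 6 megakaryocyte and platelet markers, 3 also rose in dKO arrays (Ppbp, Itga2b and Pf4) and 1 fell (Vwf). Their part in the actin and tubulin rises was not tested. Of 9 ribosome-bound factors Naca fell by 0.56 ± 0.13 (adjusted p = 0.0497), a call lost in each of the 6 fits with 1 array left out (0.0846 to 0.141), with arrays centred on their medians (0.0702) and with quantile normalization (0.097). Not past the threshold were Btf3 at -0.58 and Nmt1 at 0.78 (adjusted p = 0.0634 and 0.0651).

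Chaperones of other compartments stood beside the 87 genes as follows, where 4.49% of all genes rose and 3.56% fell. Of 16 ER chaperones 13 rose and 0 fell, a median of 0.98, with 7 called without dKO replicate 1, 8 without dKO replicate 2 and 9 to 12 without any other array. Among them were the HSP70 and J-proteins that the rule left out: Hspa5 rose by 1.01 ± 0.15 (SE, adjusted p = 0.0112), Dnajb11 by 1.504 ± 0.15 (0.00379) and Dnajc3 by 1.17 ± 0.17 (0.0112), while Dnajb9 differed by 0.43 (0.236). Hspa5 had a 95% interval that began at 0.67, above the upper end for Hspa8, 0.40, each gene read by its brightest probe set alone. Creld2 and Manf, secreted factors of ER stress, rose by 1.64 and 1.47. In mitochondria 2 of 11 chaperones and proteases fell and 0 rose (median -0.37), Hscb, the J-protein of iron-sulfur cluster assembly, by 1.26 ± 0.19 (adjusted p = 0.0116) and the chaperonin Hspd1 by 0.57 ± 0.13 (0.0445, lost in each fit with 1 array left out, up to 0.129, and with arrays centred on their medians, 0.0623). Hspe1 and Hspa9 differed by -0.56 and -0.43 (0.0991 and 0.165). Of 11 other heat shock regulators and targets 2 rose and 0 fell (median 0.27), Ier5, which acts on Hsf1, by 1.29 ± 0.26 (0.0294) and the haem oxygenase Hmox1 by 0.96 ± 0.20 (0.0324), while Gadd45b differed by 0.62 (0.0705). Both calls were lost in 5 of the 6 fits with 1 array left out, with adjusted p up to 0.0951 for Ier5 and 0.101 for Hmox1. The mean over the Ier5 probe sets was 0.56 and did not pass (adjusted p = 0.141). The lists were chosen with earlier results of these data known and differ in level and size from the 87 genes. These shares were not tested against each other.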

How the data were processed

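Expression was measured on 6 Affymetrix arrays, 3 dKO and 3 control, from RNA that the NuGEN WT-Ovation Pico kit amplified over 2 rounds, per the labels' protocols. The authors deposited log2 values, made by RMA per the submitters' processing notes (version not given in the sources used here). RMA gives relative values, so a change shared by all transcripts is not seen, and the number of arrays limits the precision. Of 45101 probe sets, 64 controls were left out and 45037 were tested with limma 3.58.1 in R 4.3.3 (lmFit, eBayes, Benjamini-Hochberg adjustment over all of them). Probe sets named by the platform annotation numbered 34945 with 1 gene and 932 with several, of which those with several were not used. Promoters came from RefSeq.

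Groups came from the genotype in the labels. Replicates were separate pools of mice. The genes named are every member past the threshold, every member of the HSP90, CCT, prefoldin, BAG and regulator families, the 3 brightest and the 3 with the largest difference of each other family, and the 3 with the smallest p of each outside list, plus Myc and Mycn. Further members are named to account for all 87. The members and lists were chosen with earlier results of these data known. A dim group is one whose mean lay in the range of 3 negative control probe sets. Simulated data had 200 changed of 45037 probe sets. There the test recovered 29% of those changed by 1 and 79% of those changed by 2 (log2), with 4 false calls. In the real data 3146 probe sets were called, so these shares do not give the recovery there. Alternatives numbered 13, 6 of which left out 1 array. Protein sequences were not used here.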

Additional observations from a re-analysis of the deposited data

How the results depend on the processing

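No result changed direction past the threshold under the 13 alternatives. The replicate numbers did not pair the arrays (correlations of same-numbered deviations -0.02, 0.00 and 0.01). With the replicate block, 1530 of all probe sets passed, against 3146 without it. The replicate block also left 0 DNAJC genes higher and 1 lower, 1 of the 87 genes lower, and 11 outside-list genes higher and 1 lower (8 of the ER chaperones higher). Single calls lost with the replicate block were Dnajc10 (adjusted p = 0.0603), Dnajc28 (0.0515), Fkbp4 (0.0824), Fkbp5 (0.0551), Tbcb (0.0563), Ier5 (0.0791), Hmox1 (0.0784), Naca (0.113) and Hspd1 (0.107).

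With a trended robust prior, 7 of the 87 genes were higher and 5 lower, among them 3 CCT genes lower, 2 DNAJA or DNAJB, 2 DNAJC and 1 prefoldin gene higher. Among probe sets at or above the median level, 6 of the 87 were higher and 1 lower, among them 1 DNAJA or DNAJB, 2 DNAJC and 1 prefoldin gene higher and 1 DNAJC gene lower. That setting tests fewer probe sets, and it gave medians of 0.14 for DNAJC, 0.10 for HSP70 and HSP110 and 0.10 for small heat shock proteins. With each array centred on its median, 1 DNAJA or DNAJB gene was higher, 2 outside-list genes were lower, and medians were 0.12 for the 87 genes, -0.16 for CCT, 0.19 for DNAJA and DNAJB, 0.17 for DNAJC, 0.0683 for HSP70 and HSP110 and 0.24 for small heat shock proteins. The mean over a gene's probe sets gave medians of 0.0779 for DNAJC, -0.0551 for HSP70 and HSP110, 0.0265 for small heat shock proteins and 0.17 for the outside lists. Quantile normalization gave 0.076 for DNAJA and DNAJB. The cause of the other shifts was not tested.

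With 1 array left out, all probe sets called numbered 1338 to 1674. Of the 87 genes 1 to 3 were higher and 0 to 2 lower, of DNAJC 0 to 1 higher and 0 to 2 lower, of HSP70 and HSP110 0 to 1 higher, of BAG 0 to 1 lower, and of the outside lists 10 to 16 higher and 1 to 2 lower. Medians ran from -0.24 to -0.17 for CCT, 0.074 to 0.15 for DNAJA and DNAJB, 0.0712 to 0.18 for DNAJC, -0.0226 to 0.17 for HSP70 and HSP110 and 0.11 to 0.23 for small heat shock proteins. Signal over background limits Dnajc12, Cct6b and Hspa1a, whose dKO means were in the negative control range, and Dnajb3 and Dnajc5g, dim in both groups.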
